A study of Mus musculus with 58 samples.

Results

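Chromatin accessibility was compared between hematopoietic stem cells (HSCs) of old restricted mice (OCR, n = 4 libraries) and of old mice that had been restricted and then refed (OCRRF, n = 2 libraries), over all 131918 consensus peaks of the ATAC-seq experiment. These 6 libraries are part of a series of 58 samples. All mice were wild-type male C57BL/6J. OCR mice had been kept on 40% caloric restriction (CR) from 3 to 4 months of age until they were 24 to 26 months old, and OCRRF mice had been under the same lifelong CR and were then fed ad lib for 4 weeks. HSCs were sorted as LSK CD34-Flk2-CD150+ cells, and 6000 cells went into each ATAC-seq reaction. RNA-seq libraries of the same groups (OCR, n = 4 and OCRRF, n = 2) and of old mice fed ad lib throughout (OAL, n = 4) were used for RNA levels, PU.1 ChIP-seq peaks of OCR and OCRRF HSCs (n = 2 each) for binding and H3K4me3 and H3K27me3 ChIP-seq of OCR HSCs (n = 2 each) for promoter marks. ATAC-seq libraries of OAL HSCs were not analysed here, so no accessibility value says what HSCs of old mice look like without restriction. Whether each library came from 1 mouse or from pooled mice is not given in the sources used here, and the p-values below measure the spread between these libraries.

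ATAC-seq uses a transposase that cuts DNA where nucleosomes and other proteins leave it open, so that reads pile up at promoters and enhancers. In HSCs most distal open regions are enhancers occupied by stem cell and blood lineage transcription factors such as the RUNX, GATA, ETS and AP-1 families, and the opening or closing of such a region often accompanies a change in transcription of a gene nearby, although the nearest gene need not be its target. Refeeding after CR restores glucose and insulin supply, and the FOXO transcription factors, which insulin signaling holds out of the nucleus, are among the regulators that are known to answer to nutrients.

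Library depths overlapped between the groups. The libraries held 15721335 to 19558148 reads in peaks for OCR and 16756636 to 18123022 for OCRRF, and 43.3% to 44.7% of the reads of each library lay in promoter peaks. PC1 of the 500 most variable peaks, which held 28.3% of their variance, separated the groups, with scores of 4.80 to 14.5 in OCR and -22.3 and -11.7 in OCRRF (exact permutation test, two-sided, p = 0.133, the smallest p that 4 against 2 libraries allow). The 1000 peaks with most reads held a slightly smaller share in OCR (11.0% to 11.2%) than in OCRRF (11.4% in both), and the TMM composition factors were 1.00 to 1.02 in OCR and 0.979 and 0.989 in OCRRF, so neither measure overlapped between the groups. RNA of the HSC regulators Mecom, Hlf, Procr and Slamf1 was present in every library (Mecom at no less than 266 CPM) and 27 of 28 stem cell genes had a promoter peak. RNA of other lineages was present too. Under 1 CPM in all 6 RNA libraries were 1 of 7 T cell markers (Cd3d), 1 of 10 granulocyte and monocyte markers (Ly6g) and 0 of 6 B cell markers, while the neutrophil protease gene Prtn3 had 203 to 266 CPM, the B cell receptor component Cd79b 32.7 to 41.6 CPM and the T cell kinase Lck 10.0 to 14.3 CPM. The summed RNA of the 6 B cell markers was somewhat lower in OCR (39.2 to 46.2 CPM) than in OCRRF (48.3 to 51.2 CPM), that of the 10 granulocyte and monocyte markers likewise (254 to 313 against 321 to 340 CPM), and the summed promoter accessibility of 7 endothelial and stromal markers was lower too (145 to 160 against 165 to 170 CPM). Single genes made up most of both RNA sums. Cd79b, most of the B cell sum, overlapped between the groups (32.7 to 41.6 CPM in OCR, 34.4 and 37.6 CPM in OCRRF). Prtn3, most of the myeloid sum, had 203 to 230 CPM in OCR and 246 and 266 CPM in OCRRF. Itgam went the other way, with 2.76 to 4.18 against 1.64 and 2.14 CPM. The part of these markers in the results was not tested. Only 2 of the 6 B cell genes and 1 of the 10 myeloid genes had a promoter peak at all.

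Few regions differed between restricted and refed HSCs. Of the 123372 peaks tested (the other 8546 had too few reads), 273 were differentially accessible regions (DARs), defined in edgeR's quasi-likelihood test by a change of over 1.5-fold, a Benjamini-Hochberg adjusted p under 0.05 and a mean above 1.5 on the log2 CPM scale. This was 0.221% of the tested peaks. OCR HSCs were more accessible than OCRRF HSCs at 112 DARs (0.0908%) and less accessible at 161 (0.13%). The median change was 1.90-fold for DARs higher in OCR and 1.66-fold for those lower in OCR, with a maximum of 3.47-fold. The adjusted p alone was passed by 648 peaks, of which 285 changed by no more than 1.5-fold and a further 90 failed the level minimum alone. No library of one group overlapped the other group at 269 of the 273 DARs. The DARs were called on these same libraries, so this follows largely from the call and is no separate evidence. Over all tested peaks the groups did not overlap at 20.4%. The split by direction depended on the scaling. Without composition factors (library size only), 133 DARs were higher and 93 lower in OCR, while DESeq2 gave 78 and 116.

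**Figure D1:**
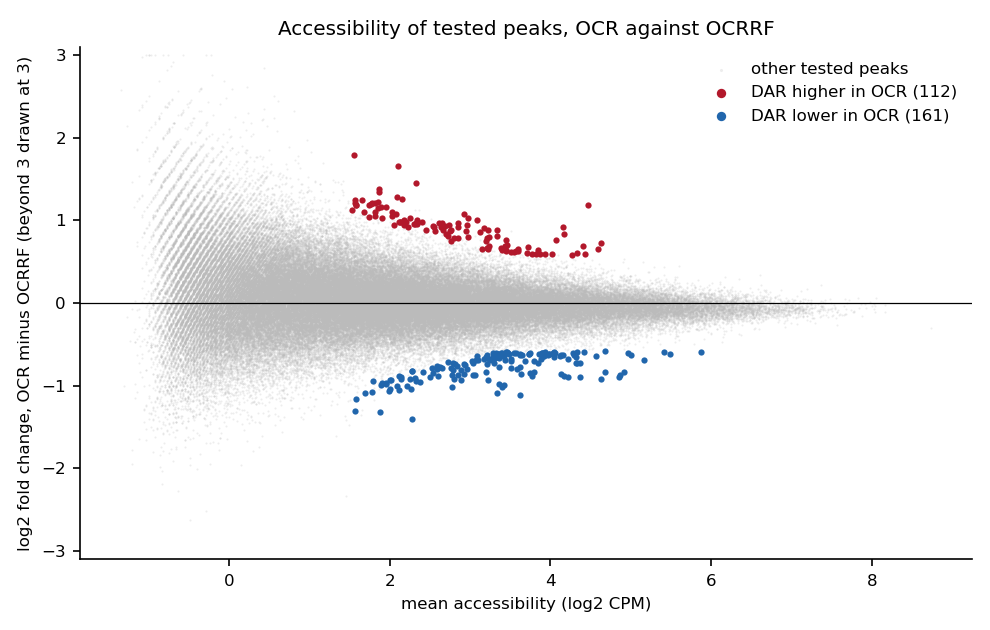
Mean accessibility (log2 CPM, x axis) against the log2 fold change between OCR and OCRRF HSCs (y axis, positive where OCR is higher) for each of the 123372 tested peaks, with DARs in red (112 higher in OCR) and blue (161 lower in OCR). The DARs lower in OCR have a higher median level (3.34) than those higher in OCR (2.74), and changes beyond 3 are drawn at 3.

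The number of calls rested on single libraries. Leaving out OCRRF replicate 1 left 98 DARs, OCRRF replicate 2 left 119, OCR replicate 1 left 99 and OCR replicate 2 left 139, whereas 302 and 367 were called without OCR replicate 3 and OCR replicate 4. Only 14 of the 273 DARs were called in all 6 of these fits. With 1 OCRRF library left, its spread was assumed to equal that of the OCR libraries.

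The DARs were mainly distal and not promoters. Of the DARs lower in OCR, 3 of 161 (1.86%, 95% Wilson interval 0.6 to 5.3) had their centre within 1 kb of a transcription start site (TSS), against 11 of 112 (9.82%, 5.6 to 16.7) of those higher in OCR, 13.2% of all tested peaks and 22.0% of tested peaks above the level minimum. These shares rested on single libraries, with 12.2% of lower and 24.4% of higher DARs at promoters without OCRRF replicate 2, and 3.03% and 18.2% without OCR replicate 1. Introns held 46.6% of the DARs lower in OCR and 41.1% of those higher in OCR, and intergenic sequence 49.1% and 46.4%. The median distance from the nearest TSS was 51439 bp for DARs lower in OCR and 31514 bp for DARs higher in OCR, compared with 18367 bp for peaks above the level minimum. Median widths were 892 and 784.5 bp, close to the 819 bp of peaks above the level minimum, and GC content was 45.3% and 47.6%, against 48.8%. DARs lay on every autosome and on X. They were mostly solitary, since only 10 pairs of neighbouring DARs were at most 50 kb apart, and both members of each of these 10 pairs changed in the same direction.

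Motif shares were then compared with those of all peaks. The AP-1 motif TGANTCA, the site of Fos and Jun family dimers, was present in the central 200 bp of 31 of these 161 DARs (19.3%) and of 4 of the 112 DARs higher in OCR (3.57%), compared with 8.13% of all tested peaks above the level minimum. The STAT motif TTCCNGGAA, bound by the factors downstream of cytokine receptors, was found in 6 DARs lower in OCR (3.73%) and in none higher in OCR, with 0.817% of all peaks above the level minimum. The FOXO motif TGTTTAC stood in 6.83% of the DARs lower in OCR and in 1.79% of those higher in OCR, against 2.69% of peaks. The GATA motif AGATAAGA went the other way, with 5 DARs higher in OCR (4.46%) and 1 lower in OCR (0.621%), against 1.13%. The TEAD core GGAATG was in 16.1% of the DARs lower in OCR and 11.6% of those higher, against 9.27%, and the glucocorticoid half-site pair ACANNNTGT in 9.32% and 6.25%, against 5.87%. Both strands were searched, the motifs described were chosen from 23 after their shares were seen, and AP-1, STAT, FOXO and GATA strings do not contain one another. The PU.1 motif GAGGAAGT was in 7.14% of the DARs higher in OCR and in 3.11% of those lower, with 4.81% of peaks, and the GC box GGGCGG of CpG-rich promoters in 11.6% and 2.48%, with 17.1% of peaks. A match is a string in the sequence and does not show that a factor was bound.

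The AP-1 string is shown in the 6 DARs lower in OCR with the smallest p among those that hold it centrally (mm10, plus strand, motif in capitals, nearest gene named).
Tnfrsf11b, chr15:54114266-54114316: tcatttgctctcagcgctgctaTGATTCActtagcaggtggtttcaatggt
Plxna4, chr6:32511311-32511361: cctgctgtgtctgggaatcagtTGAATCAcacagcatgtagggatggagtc
Farsb, chr1:78426099-78426149: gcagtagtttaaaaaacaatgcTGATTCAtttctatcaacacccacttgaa
Baiap2, chr11:119933282-119933332: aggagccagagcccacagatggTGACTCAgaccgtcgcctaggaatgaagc
Krtap13, chr16:88745110-88745160: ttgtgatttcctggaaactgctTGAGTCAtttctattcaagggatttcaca
Prg3, chr2:85001806-85001856: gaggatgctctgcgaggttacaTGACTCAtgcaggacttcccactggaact
At Tnfrsf11b, the gene of osteoprotegerin, the DAR lay 164118 bp from the TSS and had 16.0 ± 5.20 CPM (SD, n = 4) in OCR and 33.4 and 25.9 CPM in OCRRF. At Plxna4, the gene of a semaphorin receptor, the values were 16.4 ± 2.36 CPM in OCR and 29.8 and 24.1 CPM in OCRRF.

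All 6 DARs lower in OCR with a central STAT string are shown, with the motif in capitals.
Krtap13, chr16:88745096-88745146: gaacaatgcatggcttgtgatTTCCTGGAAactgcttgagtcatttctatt
Prkd1, chr12:50765580-50765630: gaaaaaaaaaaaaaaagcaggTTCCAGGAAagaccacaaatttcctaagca
Cxadr, chr16:78153580-78153630: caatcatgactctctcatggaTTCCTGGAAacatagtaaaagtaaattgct
Gnaz, chr10:74612193-74612243: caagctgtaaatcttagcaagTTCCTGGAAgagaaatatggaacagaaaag
Fam118b, chr9:35264666-35264716: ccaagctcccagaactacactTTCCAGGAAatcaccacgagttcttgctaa
Max, chr12:77057032-77057082: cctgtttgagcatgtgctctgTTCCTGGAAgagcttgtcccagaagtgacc
The Krtap13 region holds the AP-1 and the STAT string side by side, and its accessibility was 5.01 ± 0.913 CPM in OCR and 12.1 and 8.23 CPM in OCRRF. At Cxadr, the gene of a junctional adhesion receptor, at -147938 bp, OCR had 9.16 ± 2.31 CPM and OCRRF 15.4 and 16.0 CPM.

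The FOXO string is shown in the 4 DARs lower in OCR with the smallest p among those that hold it centrally, with the motif in capitals on either strand.
Cngb3, chr4:19328574-19328624: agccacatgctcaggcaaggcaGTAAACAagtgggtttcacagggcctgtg
Tfec, chr6:16359939-16359989: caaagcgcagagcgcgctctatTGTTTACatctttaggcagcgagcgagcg
Prag1, chr8:36016441-36016491: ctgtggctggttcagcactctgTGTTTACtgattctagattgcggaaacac
Farsb, chr1:78426168-78426218: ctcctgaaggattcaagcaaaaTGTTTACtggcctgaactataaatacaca
The Cngb3 region, in an intron 47721 bp from the TSS of this channel gene, was the most accessible of these, at 49.8 ± 4.63 CPM in OCR and 77.8 and 72.5 CPM in OCRRF (log2 fold change -0.59, SE 0.07, adjusted p 7.26e-06).

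All 5 DARs higher in OCR with a central GATA string are shown, with the motif in capitals on either strand.
Abcg2, chr6:58642487-58642537: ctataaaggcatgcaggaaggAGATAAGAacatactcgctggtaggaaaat
Gm281, chr14:13810762-13810812: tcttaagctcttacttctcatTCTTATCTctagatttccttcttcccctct
Cxxc4, chr3:134366156-134366206: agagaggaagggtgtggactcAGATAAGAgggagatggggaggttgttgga
Tasp1, chr2:140097332-140097382: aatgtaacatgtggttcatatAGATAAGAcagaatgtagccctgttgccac
Fnip2, chr3:79574457-79574507: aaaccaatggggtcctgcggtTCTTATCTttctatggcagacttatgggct
The region near Abcg2, the gene of the efflux pump behind the stem cell side population, had 6.78 ± 0.518 CPM in OCR and 4.01 and 3.03 CPM in OCRRF (log2 fold change 0.94, SE 0.21, adjusted p 0.0221).

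The same motifs were followed over the 65505 tested peaks above the level minimum, whether or not they were DARs. The median log2 fold change of the 5326 peaks with a central AP-1 string was 0.040 below that of all these peaks, and 39.4% of them were higher in OCR, whereas 29936 of all 65505 were. The 535 peaks with a STAT string lay 0.053 below and the 1763 with a FOXO string 0.036 below, while the 739 with a GATA string lay 0.057 above and the 3151 with a PU.1 string 0.045 above. For each of these 5 motifs the medians of the 4 OCR libraries and of the 2 OCRRF libraries did not overlap. The gap was narrow for AP-1, where the highest OCR median was -0.00196 and the OCRRF medians were 0.00351 and 0.0489. For PU.1 the median was 0.0408 in OCR replicate 1 and 0.000109 to 0.00481 in the other OCR libraries, against -0.0365 and -0.0190 in OCRRF. Downward shifts were not particular to AP-1, STAT and FOXO. The 195 peaks with an NF-kB string lay 0.081 below (24.6% higher in OCR) and the 52 with a PAR bZIP string 0.093 below, both without overlap. The groups also did not overlap for the 22 peaks with an NFI string (0.033 below) and the 259 with a HOX-MEIS string (0.014 above). For every remaining motif they overlapped. The 2616 peaks with a RUNX string lay 0.036 below, with overlap between the groups. These shifts were small, and kept their sign with DESeq2, with library size only, with loess offsets on abundance and with loess offsets on GC content. Over the 13101 least accessible of these peaks the median was 0.041 above that of all, and over the 13101 most accessible it was 0.030 below. Loess offsets on abundance, which remove that trend, left 103 DARs higher and 106 lower in OCR, with the AP-1 string in 3.88% and 19.8% of them. When each library was left out in turn, the AP-1 share was 13.6% to 18.9% in DARs lower in OCR and 0% to 6.67% in DARs higher in OCR. The TEAD share was 15.3% to 20.3% in lower and 4.17% to 15.6% in higher DARs, and that of the glucocorticoid pair 8.16% to 13.6% and 0% to 7.32%. Without OCR replicate 2 both were close, at 15.3% and 14.6% for TEAD and 8.16% and 7.32% for the pair. The STAT share of lower DARs was 1.35% to 8.16%, and was 1.52% (1 of 66) without OCR replicate 1. It was 0% of higher DARs in each of these 6 fits, which is near the 0.817% of all peaks above the level minimum. The contrasts of FOXO, GATA, PU.1 and the GC box turned in at least 1 of these fits. The FOXO share was 4.05% to 12.1% in lower and 0% to 7.32% in higher DARs, and without OCR replicate 2 it was no greater in lower (7.14%) than in higher DARs (7.32%). The GATA share was 0% to 4.79% in higher and 0% to 1.52% in lower DARs, and without OCRRF replicate 1 it was 0% in higher and 1.35% in lower DARs. The PU.1 string went the other way without OCRRF replicate 1 (0% of higher and 8.11% of lower DARs), without OCRRF replicate 2 (6.67% and 8.11%) and without OCR replicate 1 (0% and 3.03%), as did the GC box without OCRRF replicate 2 (6.67% and 13.5%).

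**Figure D2:**
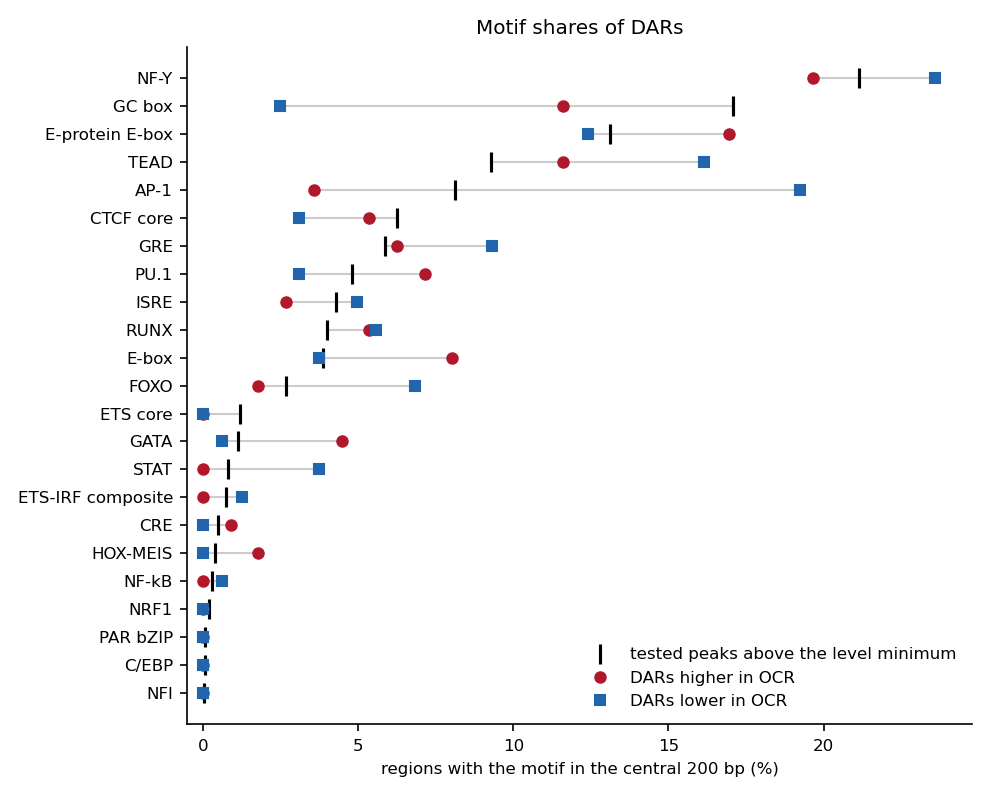
Share of regions with each of 23 motifs in the central 200 bp (x axis, percent) for the 112 DARs higher in OCR (red circles), the 161 DARs lower in OCR (blue squares) and all 65505 tested peaks above the level minimum (black ticks). In DARs lower in OCR the AP-1 share (19.3%) and the TEAD share (16.1%) lie farthest above their ticks (8.13% and 9.27%).

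PU.1, an ETS factor that directs myeloid and lymphoid differentiation, had been mapped by ChIP-seq in the same groups. A PU.1 peak of at least 1 of the 4 libraries overlapped 11 of 112 DARs higher in OCR (9.82%, 95% Wilson interval 5.6 to 16.7) and 7 of 161 lower in OCR (4.35%, 2.1 to 8.7), compared with 7.40% of tested peaks above the level minimum. Without OCRRF replicate 2 the shares were 20.0% and 4.05%, and without OCR replicate 1 they were 9.09% and 1.52%. None of the 11 was a promoter. They included a region in an intron of Cblb, a ubiquitin ligase that restrains immune receptor signaling, which carried a PU.1 peak in all 4 libraries and had 28.3 ± 3.25 CPM in OCR and 16.2 and 18.2 CPM in OCRRF (log2 fold change 0.72, SE 0.11). Other DARs with PU.1 peaks in all 4 libraries lay at 535632 bp from the TSS of Robo2 and at -557659 bp from that of Crim1. A PU.1 peak of the OCRRF libraries lay on 6 DARs higher in OCR and on 1 lower in OCR. The OCR libraries gave more PU.1 peaks on tested regions (4842 and 3498) than the OCRRF libraries (2571 and 2085), and the 2 conditions were not compared.

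Median histone signals at promoters of genes within 50 kb of a DAR also differed by direction, although the quartiles overlapped. In OCR HSCs the median promoter H3K4me3 signal, a mark of active promoters, was 13.5 and 11.9 in the 2 replicates for genes near DARs higher in OCR and 25.3 and 24.3 for genes near DARs lower in OCR. The nearest genes of peaks above the level minimum had 23.0 and 22.2 (mean signal per base, scaled by the authors). In replicate 1 the quartiles were 1.72 to 31.8 near higher DARs and 9.91 to 37.6 near lower DARs. H3K27me3, the mark of Polycomb repression, had medians of 0.543 and 0.524 near DARs higher in OCR, 0.288 and 0.245 near DARs lower in OCR and 0.269 and 0.278 for peaks above the level minimum. Its quartiles in replicate 1 were 0.242 to 1.53 near higher DARs and 0.122 to 0.673 near lower DARs. These marks were measured in OCR HSCs only and are shown as a description.

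RNA levels were then set beside the DARs. In RNA-seq of the same groups, 1110 of 32577 tested genes (3.41%) were DEGs (changed by over 1.2-fold, with adjusted p under 0.05 in edgeR's quasi-likelihood test), 884 higher (2.71%) and 226 lower (0.694%) in OCR. Over all tested genes the median change was -0.108 (log2), and TMM factors taken from genes with at least 5 CPM moved it by a further -0.129 and gave 575 higher and 341 lower DEGs. The nearest gene within 50 kb of a DAR lower in OCR was measured in RNA for 72 genes. Their median RNA log2 fold change was -0.15, 48 of 72 were lower in OCR, and 8 were DEGs lower in OCR (11.1%, against 1.05% of the nearest genes of all tested peaks) while 3 were DEGs higher in OCR (4.17%, against 4.66%). The 60 genes nearest to DARs higher in OCR had a median of 0.02, with 31 higher and 29 lower, and 5 of them were DEGs higher in OCR (8.33%) and none a DEG lower in OCR. For the 16925 nearest genes of all tested peaks the median was 0.03. Within 10 kb of the TSS the medians were -0.29 for 27 genes near DARs lower in OCR and -0.00 for 32 near DARs higher in OCR. With no limit on distance, the median near DARs higher in OCR was -0.09 (44.1% higher). With TMM factors from genes of at least 5 CPM the medians were -0.11 near DARs higher in OCR (35.0% higher), -0.28 near DARs lower in OCR and -0.10 for all nearest genes, so the sign near DARs higher in OCR depended on the scaling and on the distance.

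**Figure D3:**
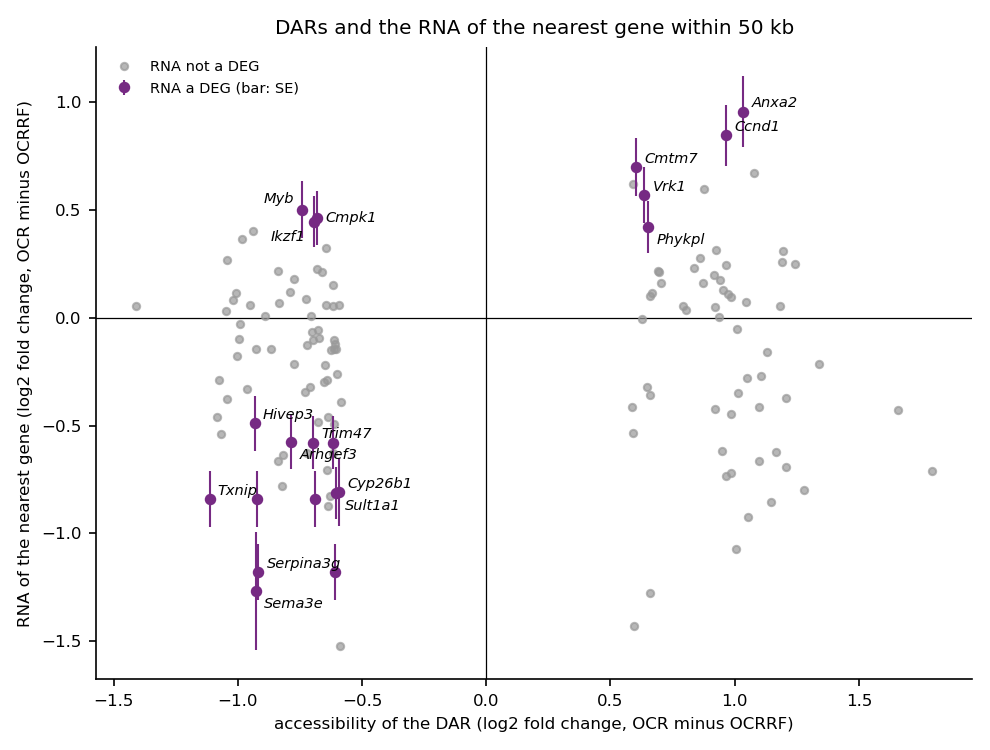
Each point is a DAR whose nearest TSS lies within 50 kb, with its accessibility change (x axis) and the RNA change of that gene (y axis), both as log2 fold change of OCR minus OCRRF; purple points with SE bars are DEGs and carry the gene name. Purple points fill the lower left (both lower in OCR, 8 genes) and the upper right (both higher, 5 genes), with Myb, Ikzf1 and Cmpk1 in the upper left and none in the lower right.

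Txnip held the clearest set. Its product binds thioredoxin and restrains glucose uptake, and it is a known target of nutrient signals. Txnip was the gene nearest to 3 DARs, more than any other gene, and all 3 were lower in OCR. The promoter peak, 17 bp from the TSS on chromosome 3, had 27.6, 29.5, 30.9 and 30.4 CPM in the OCR libraries and 51.3 and 44.0 CPM in the OCRRF libraries. It was lower in OCR by 0.69 on the log2 scale (SE 0.08, adjusted p 7.26e-06). All 4 OCR libraries lay below both OCRRF libraries. A peak at +2145 bp, in an intron, which also carried a PU.1 peak in 2 libraries, had 17.2, 16.7, 18.2 and 23.6 CPM against 42.9 and 28.6 CPM (log2 fold change -0.92, SE 0.12, adjusted p 1.25e-05). The DAR at +4410 bp had 7.60, 7.25, 6.42 and 14.2 CPM against 25.3 and 12.7 CPM (-1.11, SE 0.19, adjusted p 0.00185), and here OCR replicate 4 overlapped OCRRF replicate 2. A further peak between them, at +3531 bp, changed by -0.96 (SE 0.25, adjusted p 0.0663) and was not called, while peaks at -6501 bp and +6772 bp had values of 0.24 (SE 0.22) and 0.00 (SE 0.13). Txnip RNA was 1177, 1044, 1119 and 1293 CPM in OCR and 2511 and 1710 CPM in OCRRF (log2 fold change -0.84, SE 0.13), with 2316, 2221, 2469 and 2826 CPM in OAL HSCs. RNA and accessibility thus both had OCRRF replicate 1 as the highest library of the pair, although the libraries of the assays are not known to share mice. Without OCRRF replicate 1 the 3 changes were -0.58, -0.60 and -0.53 (adjusted p 0.0117, 0.0695 and 0.464) and none was called. DESeq2 did not call the +4410 bp peak.

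The central 200 bases of the promoter peak and of the peak at +4410 bp of Txnip are shown (mm10, plus strand), with capitals marking a CAGCTG E-box in the first and the FOXO string in the second.
Txnip +17 bp, chr3:96557878-96558077: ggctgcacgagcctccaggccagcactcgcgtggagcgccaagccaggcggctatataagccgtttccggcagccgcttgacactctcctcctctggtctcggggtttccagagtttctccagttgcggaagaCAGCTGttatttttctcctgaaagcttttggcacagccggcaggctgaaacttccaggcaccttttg
Txnip +4410 bp, chr3:96562271-96562470: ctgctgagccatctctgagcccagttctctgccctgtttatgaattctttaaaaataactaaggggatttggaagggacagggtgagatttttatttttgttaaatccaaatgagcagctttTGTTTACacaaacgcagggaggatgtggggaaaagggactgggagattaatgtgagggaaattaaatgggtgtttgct

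**Figure D4:**
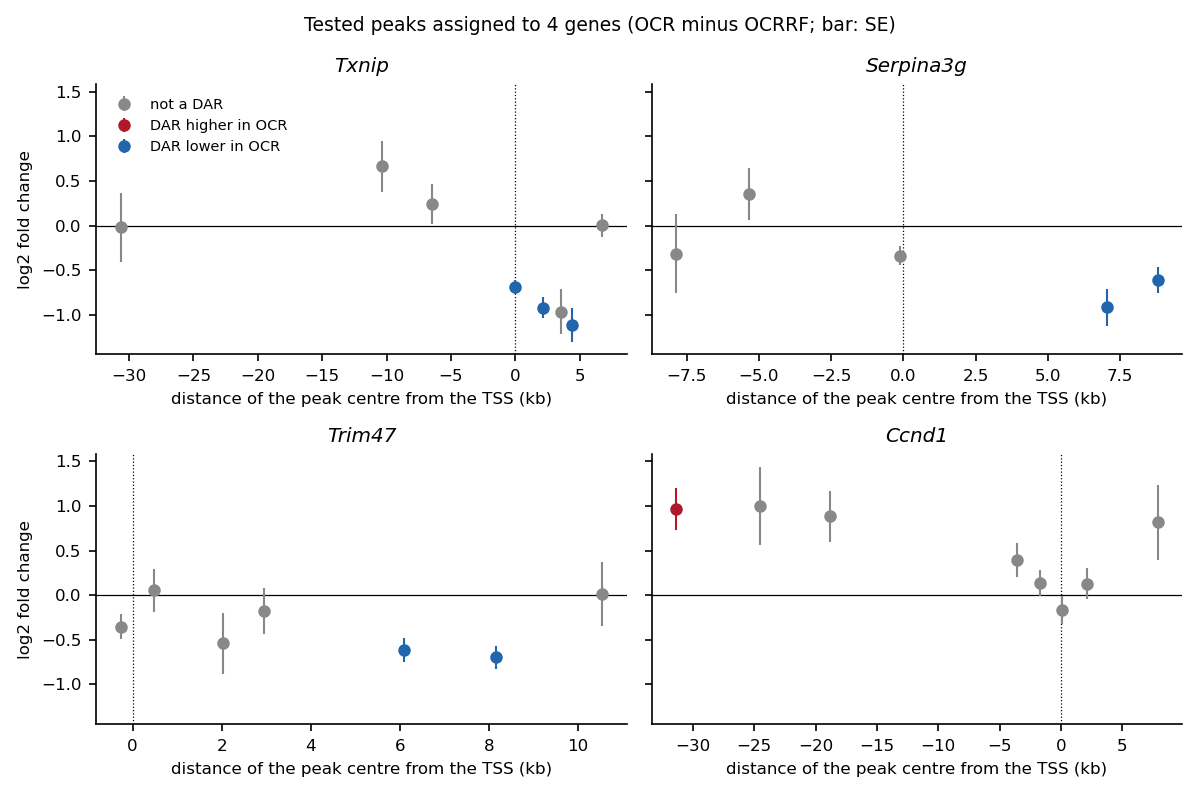
Tested peaks whose nearest gene is Txnip, Serpina3g, Trim47 or Ccnd1, by distance of the peak centre from the TSS (x axis, kb) and log2 fold change of OCR minus OCRRF (y axis, bars are SE). The changes at Txnip lie from the TSS to +4410 bp, those at Serpina3g and Trim47 downstream of the TSS at 6086 to 8803 bp, and the Ccnd1 DAR at -31394 bp.

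Further genes had both a less accessible region and less RNA in OCR. Serpina3g, a protease inhibitor of a mouse multigene family, had DARs at +7049 and +8803 bp. The first had 4.68, 6.88, 6.08 and 3.57 CPM in OCR and 13.3 and 6.66 CPM in OCRRF, which overlap, and the second 9.37, 9.70, 10.8 and 10.3 CPM against 17.8 and 12.7 CPM, which do not. Serpina3g RNA was 327, 401, 272 and 361 CPM in OCR and 905 and 664 CPM in OCRRF (log2 fold change -1.18, SE 0.13), and counts of such a family can be divided among its copies. Trim47, a ubiquitin ligase, had DARs at +6086 bp (-0.62, SE 0.13) and +8152 bp (-0.70, SE 0.13), with 10.9, 10.8, 12.5 and 11.5 CPM in OCR and 19.9 and 17.1 CPM in OCRRF at the second. Its RNA was lower in OCR by 0.58 (SE 0.12). At Sult1a1, a sulfotransferase of phenols, the promoter peak at -90 bp was the only other promoter among these genes, with 8.46, 9.76, 8.35 and 7.07 CPM in OCR and 12.7 and 12.9 CPM in OCRRF. Sult1a1 RNA was lower in OCR by 0.81 (SE 0.12). Cyp26b1, which degrades retinoic acid, had a DAR at -47053 bp (-0.59, SE 0.11) and RNA lower by a log2 change of -0.81 (SE 0.16). Hivep3, Arhgef3 and Sema3e had 1 DAR each, with -0.93, -0.79 and -0.93, and RNA changes of -0.49, -0.58 and -1.27. Of these 8 genes Txnip, Trim47, Cyp26b1 and Hivep3 had an adjusted p below 0.01 for at least 1 DAR, and the remaining 4 were between 0.0221 and 0.0456. The Sult1a1 DAR stayed a call in 1 of the 6 leave-one-out fits, and those of Serpina3g in 3 each. With library size only, the DARs of Arhgef3, Sult1a1 and Cyp26b1, Serpina3g +8803 bp and Trim47 +6086 bp were not called, and DESeq2 did not call Sema3e or Serpina3g +7049 bp.

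Genes with a more accessible region and more RNA in OCR numbered 5. Ccnd1, the gene of cyclin D1, which drives entry into the cell cycle, had a DAR at -31394 bp with 7.05, 6.45, 5.34 and 4.46 CPM in OCR and 2.43 and 3.57 CPM in OCRRF (log2 fold change 0.97, SE 0.23, adjusted p 0.0384). Its RNA was 66.7, 66.3, 74.9 and 56.7 CPM in OCR and 31.7 and 43.5 CPM in OCRRF, with 45.6 to 59.5 CPM in OAL. Other Ccnd1 peaks had values of 1.01 (SE 0.44) at -24508 bp and 0.89 (SE 0.29) at -18805 bp, and the promoter peak had -0.16 (SE 0.16), none passing the test. Cmtm7, a membrane protein of lymphoid development, had a DAR at +3610 bp with 26.2, 26.2, 17.6 and 20.6 CPM against 13.7 and 16.2 CPM, and RNA higher by 0.70 (SE 0.13). Anxa2, a membrane-binding annexin, had 4.33, 3.81, 5.28 and 4.01 CPM against 2.49 and 1.75 CPM at +17547 bp, with RNA higher by 0.96 (SE 0.17). Vrk1, a nuclear kinase, and Phykpl, an enzyme of hydroxylysine breakdown, had changes of 0.64 and 0.65 in accessibility and 0.57 and 0.42 in RNA. Each of these 5 DARs stayed a call in only 1 or 2 of the 6 leave-one-out fits, and the Anxa2 DAR was lost with loess offsets on abundance, with no filter on low counts and with the replicate block.

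Accessibility and RNA went apart at 3 genes. Myb, which keeps progenitors proliferating, had an intronic DAR at +1803 bp with 6.50, 8.29, 7.22 and 8.03 CPM in OCR and 14.3 and 10.6 CPM in OCRRF (-0.74, SE 0.16), while its RNA was higher in OCR by 0.50 (SE 0.13). The Myb promoter peak at -220 bp had a change of 0.11 (SE 0.11). Ikzf1, the lymphoid regulator Ikaros, had a DAR at +3798 bp (-0.69, SE 0.16) and RNA higher by 0.45 (SE 0.12), and Cmpk1, a pyrimidine nucleotide kinase, a DAR at +28712 bp (-0.68, SE 0.14) and RNA higher by 0.46 (SE 0.13).

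**Figure D5:**
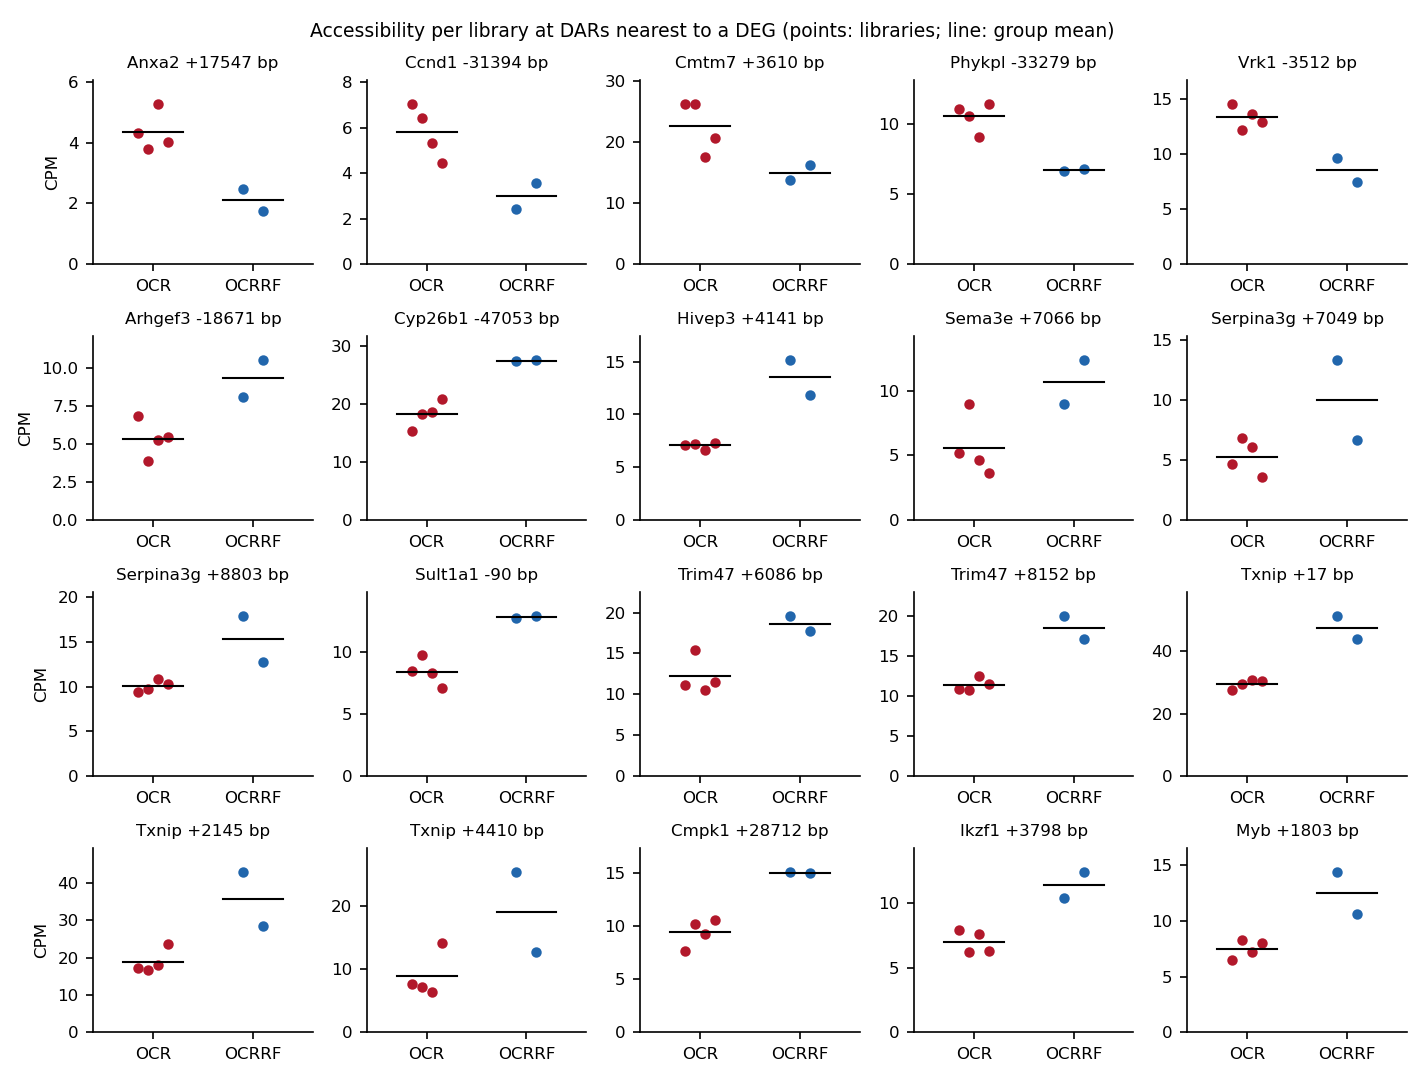
Accessibility (CPM, y axis from 0) in each library of the 20 DARs whose nearest gene within 50 kb is a DEG, with the gene and the distance of the peak centre from its TSS above each panel; red points are OCR (n = 4), blue points OCRRF (n = 2) and lines group means. The top row holds the DARs higher in OCR; at Serpina3g +7049 bp and Txnip +4410 bp the groups overlap.

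Most of the largest DARs among well covered regions lay near genes that were not DEGs. The largest increase among well covered regions (mean of at least 3 on the log2 CPM scale) was near Vmn2r-ps159. This vomeronasal receptor gene is named as a pseudogene but was annotated as protein-coding. The region had 33.8, 30.8, 22.3 and 20.7 CPM in OCR and 9.94 and 13.9 CPM in OCRRF (1.18, SE 0.15, adjusted p 7.26e-06). A second region of that locus, at +26170 bp, changed by 0.79 (SE 0.19). Such receptor genes have near-identical copies, and only uniquely mapped reads were kept, so part of the reads of this locus may be missing from the counts. In an intron of Alpk1, a kinase that senses a bacterial sugar, OCR had 24.0, 21.6, 20.2 and 18.2 CPM and OCRRF 12.3 and 9.86 CPM (0.92, SE 0.13), with an RNA change of 0.05 (adjusted p 0.907). An intron of Tgfbr2, the type II TGF-beta receptor, was also higher (0.80, SE 0.19), with an RNA change of 0.04 (adjusted p 0.905). The other DARs of the 10 largest increases lay near Camk1g, Adgrl4, Gpc5, Tnc, Traf3, Rpl38 and Ptprd, with log2 fold changes of 0.81 to 1.01. On the lower side the largest well covered region at which the groups did not overlap lay at -74163 bp from Frrs1l, with 3.93, 9.27, 9.09 and 6.95 CPM in OCR and 15.8 and 15.1 CPM in OCRRF (-1.09, SE 0.18), and the next at 25329 bp from Coq2, an enzyme of ubiquinone synthesis, with 5.24, 6.69, 10.2 and 9.05 CPM against 16.8 and 14.7 CPM (-1.02, SE 0.17). A region 165451 bp from Ncam2, a neural adhesion molecule, was lower in OCR by 0.89 (SE 0.18). Ncam2, although beyond 50 kb, was a DEG with an RNA change of -0.89 (adjusted p 0.0292). The others lay near Gas2l3, Ptprg, Tnfrsf11b, Spin1 and Spata16, beside Hivep3 and Txnip. DESeq2 did not call the DARs near Frrs1l, Ncam2, Tnfrsf11b, Ptprg and Gas2l3, and the last was called in 4 of 8 alternatives and 2 of the 6 leave-one-out fits.

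Promoters more accessible in OCR than in OCRRF included those of Tmem163, a zinc transporter (1.34, SE 0.28), Kel, the Kell blood group protein (1.11, SE 0.25), Tnfrsf26, a decoy receptor of the TNF family (1.01, SE 0.22), Slc39a11, another zinc transporter (0.70, SE 0.15), and Ifi44l, an interferon-stimulated gene outside the list used below (0.59, SE 0.13). None of the genes at the 11 promoters more accessible in OCR was a DEG in edgeR, which is near the background, since 3.41% of all tested genes were DEGs. RNA of some was close to the floor, with means of 1.13 CPM in OCR and 1.38 CPM in OCRRF for Kel and of 0.157 and 0.439 CPM for Ifi44l. The 3 promoters less accessible in OCR were those of Txnip, Sult1a1 and Gprasp1, of which the first 2 were DEGs.

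Read from the side of RNA, promoters moved little and mostly without reaching the DAR threshold. The 207 promoter peaks of DEGs lower in OCR had a median accessibility change of -0.10 (log2), with 30.0% of them higher in OCR, compared with a median of -0.02 and 45.9% for the 15995 promoter peaks of all tested genes. Relative to all promoters this was -0.08, with -0.12, -0.08, -0.06 and -0.05 in the 4 OCR libraries. The 859 promoter peaks of DEGs higher in OCR had a median of 0.02 (54.8% higher), or 0.04 above all promoters. Among them were 2 DARs for the lower DEGs and none for the higher DEGs. Socs2, a cytokine signaling inhibitor and STAT5 target chosen after its values were seen, was an extreme case. The lower quartile of the promoter changes of DEGs lower in OCR was -0.22, and the Socs2 promoter lay beyond it. Socs2 RNA was 4.58 ± 1.11 CPM in OCR (SD, n = 4) and 26.4 CPM on average in OCRRF (log2 fold change -2.51, SE 0.21). The promoter peak at -492 bp had 30.8 CPM in OCR and 44.5 CPM in OCRRF (-0.54, SE 0.09, adjusted p 0.000822), short of the fold required of a DAR.

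DEGs higher in OCR were 38 of 39 S phase genes (97.4%) and 39 of 40 G2/M genes (97.5%), against 2.71% of all tested genes. The median RNA changes of the 2 lists were 1.09 and 1.45 on the log2 scale. None of the 37 and 35 promoter peaks of these lists was a DAR in edgeR or in DESeq2 (5 and 8 had an unadjusted p below 0.05). Among all 16279 promoter peaks 11 were DARs higher and 3 lower in OCR, and 2117 had an unadjusted p below 0.05, so few calls could fall on lists of this size. The lists had median promoter accessibility changes of 0.06 and -0.00. The Ccna2 promoter had 96.9 ± 3.39 CPM in OCR and 100.3 CPM in both OCRRF libraries, and that of Mki67 35.1 ± 2.94 CPM against 32.0 and 26.3 CPM (0.27, SE 0.09, adjusted p 0.202).

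The HSC aging signature, a consensus of other studies, was the longest of the gene lists. Of 1381 tested peaks within 50 kb of the 180 genes that rise with age, 6 were DARs lower in OCR (0.434%, against 0.0997% of all 80262 such peaks) and none higher. Among the 180 genes 32 were DEGs lower in OCR (17.8%, against 0.694% of all tested genes) and 5 were DEGs higher in OCR (2.78%, against 2.71%). The 6 DARs lay at Trim47 (2), Cyp26b1, Sult1a1, Cytip, an adaptor of lymphocyte adhesion (-0.61, SE 0.13), and Ampd3, an AMP deaminase (-0.61, SE 0.15). DESeq2 also called 6, loess offsets on abundance 2 and library size only 1, and leave-one-out fits 2 to 7, with 2 each without OCRRF replicate 1, OCRRF replicate 2 or OCR replicate 1. Near the 39 genes that fall with age, the Anxa2 DAR was the 1 call, higher in OCR, and DESeq2 gave it no adjusted p. Among these 39 genes 10 were DEGs higher in OCR (25.6%) and 3 were DEGs lower in OCR (7.69%). The insulin, IGF and FOXO list had 5 DARs of 304 peaks, all lower in OCR (1.64%, against the same 0.0997%), of which 3 were at Txnip. The other 2 lay at Irs1, the adaptor of the insulin and IGF1 receptors (-0.82, SE 0.21, adjusted p 0.0497), a call that was lost in each of the 6 leave-one-out fits, and at Sesn1, a stress-induced inhibitor of mTORC1 and FOXO target (-0.60, SE 0.15), a call kept in 1 of these 6 fits. DESeq2, library size only and loess offsets on abundance each left 3 DARs in this list, and leaving out OCRRF replicate 1 left 0, with 3 to 7 in the other leave-one-out fits. Single DARs lay near Acadl, an enzyme of fatty acid oxidation (-0.60), Lef1, a Wnt effector (-0.59), and Mafk, a small Maf partner of AP-1-like factors (0.96, SE 0.20). The Lef1 call held in 3 of 8 alternatives, and those of Acadl, Cytip, Ampd3 and Sesn1 were lost with library size only and with loess offsets on abundance. Within 50 kb of circadian clock genes (149 peaks) and interferon-stimulated genes (115 peaks) no peak was a DAR in edgeR or in DESeq2, and 19 peaks in each list had an unadjusted p below 0.05. Of all 80262 peaks within 50 kb of a gene, 65 were DARs higher and 80 lower in OCR and 9097 had an unadjusted p below 0.05, so the 0 calls are near the background for lists of this size. The Pdp1 locus, a phosphatase that activates pyruvate dehydrogenase, had DARs at -6409 bp (-0.65) and -41908 bp (-0.95) with no RNA change (0.06, adjusted p 0.862).

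At the 13 promoters with a tested peak among the 15 genes named for these experiments, none was a DAR in edgeR or in DESeq2, and 4 had an unadjusted p below 0.05, against the 14 DARs and 2117 such peaks among 16279 promoter peaks given above. Of the 4, the promoter of Ect2, which is required for cytokinesis, had the smallest p. It had 81.4, 88.6, 83.2 and 90.1 CPM in OCR and 102.7 and 98.4 CPM in OCRRF (-0.23, SE 0.06, adjusted p 0.0602). Ect2 RNA went the other way and was higher in OCR by 1.25 (SE 0.18). At Bmp4, Clu and Mki67 promoter and RNA changed in the same direction. Bmp4, a ligand of the BMP receptor, had 12.2, 13.5, 15.9 and 12.6 CPM at its promoter in OCR and 19.3 and 17.7 CPM in OCRRF (-0.45, SE 0.12, adjusted p 0.0804). Its RNA was lower in OCR by a log2 change of -0.94 (adjusted p 0.00387). Kdr, the VEGF receptor 2, had 15.0, 14.6, 17.4 and 16.9 CPM against 19.3 and 17.3 CPM at its promoter (-0.20, SE 0.12), where OCR replicate 3 overlapped OCRRF replicate 2, while its RNA changed by -1.05 (SE 0.17). The promoter of Spi1, which encodes PU.1, had 24.2, 25.0, 24.5 and 31.9 CPM against 28.3 and 27.5 CPM (-0.08, SE 0.10).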

How the data were processed

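ATAC-seq counts came from 6 libraries, and RNA-seq, PU.1 and histone ChIP-seq values from the libraries named above. The authors trimmed ATAC-seq reads with cutadapt, mapped them to mm10 with BWA, kept de-duplicated unique reads outside blacklisted regions, called MACS peaks in each replicate (FDR below 0.01), merged them and deposited raw counts per consensus peak. Any shift for the transposase is not given in the sources used here. RNA counts per gene were deposited by the authors from STAR alignments to mm10 and featureCounts. PU.1 peaks were called by the authors in each library with MACS2 and deposited with a score, a fold enrichment ratio and -log10 p and q values. The 2 PU.1 replicates of a group were made with different antibodies. Histone signal was deposited by the authors as mean coverage near each TSS, scaled to read depth, and the largest value of each gene symbol was used.

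Counts were tested with edgeR 4.0.16 (R 4.3.3) after filterByExpr and TMM, by quasi-likelihood tests with Benjamini-Hochberg adjustment over all tested peaks or genes. ATAC CPM values were scaled to library totals in tested peaks multiplied by the TMM factors. RNA CPM values were scaled to library totals in genes multiplied by TMM factors over the OCR, OCRRF and OAL libraries. Statements on overlap between groups thus carry the TMM scaling. Peaks were assigned to the nearest TSS of protein-coding genes of GENCODE M21 (mm10), and 54510 of 55376 RNA rows matched a symbol there. Sequences came from the RefSeq GRCm38 genome. Alternatives included DESeq2 1.42.0, and those added after the data were seen were GC offsets, genes of every type and recounts with other calls. The regions, motifs and gene lists were chosen with earlier results of these data known. Regions were named by a rule: the 10 largest non-overlapping DARs in each direction with a mean of at least 3 (log2 CPM), genes whose DAR and RNA both changed, genes with several DARs or the smallest p, and DARs of the lists. On simulated counts 73.0% of ATAC peaks changed 2-fold, 81.0% of those changed 3-fold and 89.5% of RNA genes changed 2-fold were recovered. False calls numbered 8, 0 and 9. The median changes of the DARs were smaller (1.90-fold and 1.66-fold), and recovery at those sizes was not measured. Simulated libraries were drawn independently, without effects shared by the peaks of 1 library. Wilson intervals cover counting error only.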

Additional observations from a re-analysis of the deposited data

Results flagged for a closer look

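Of 75 sets of 4 OCR values examined, 3 had a library far from the others by Dixon's ratio, where chance gives about 1 in 20. The region 886686 bp from the TSS of Gpc5 had 15.9 CPM in OCR replicate 1 and 10.1, 10.6 and 10.2 CPM in the others (ratio 0.905). The region 77585 bp from Tnc had 15.5 CPM in OCR replicate 1 and 9.27, 9.72 and 8.73 CPM in the others (ratio 0.854). The region 4410 bp from Txnip had 14.2 CPM in OCR replicate 4 and 7.60, 7.25 and 6.42 CPM in the others (ratio 0.848).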

How the results depend on the processing

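The number of DARs (273, 112 higher and 161 lower in OCR) was 648 (213 and 435) by adjusted p alone and 151 (43 higher) above a mean of 3 on the log2 CPM scale. Library size only gave 133 higher and 93 lower DARs, which turns the order of the split, and loess offsets on abundance 106 lower. With one library left out in turn it was 98 to 367 (24 to 146 higher, 66 to 221 lower). DEGs (1110, 884 higher and 226 lower) were 2297 (2084 higher) with DESeq2, and TMM factors over genes of at least 5 CPM gave 575 and 341. With one library left out they were 352 to 2755 (291 to 1799 higher, 61 to 956 lower). With the replicate number as a block there were 764 DARs (289 higher, 475 lower; 242 shared with the 273) and 3437 DEGs (2434 higher, 1003 lower), but same-numbered libraries did not deviate together (correlations -0.0109 and -0.0126 in ATAC, 0.0232 and -0.119 in RNA), so they share only a number. RNA medians relative to all nearest genes were -0.011 near higher DARs, but -0.120 with no distance limit and -0.098 over genes of every type, and -0.330 to 0.038 with one ATAC library left out, so their sign was not stable. Near lower DARs the median was -0.177, but -0.329 within 10 kb and -0.492 to -0.132 with one left out. PU.1 peaks over the centre lay on 1.24% of lower DARs. Promoters of DEGs higher in OCR were 0.035 above all promoters, 0.017 with the DEGs of DESeq2 and 0.016 to 0.036 with one ATAC library left out, and those of lower DEGs -0.082, with -0.087 to -0.073. The causes of these shifts were not tested.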
